A study of Mus musculus with 8 samples.

Results

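The comparison is that of 6 primary soft tissue sarcomas with 2 normal muscles of mice, over all 8 arrays of the series, taken by the titles of the samples. It was described over 12393 genes, each read by the probe set whose mean over the 8 arrays was highest. The sarcomas were 4 tumours of genotype Braf Ca/Ca; p53 Fl/Fl and 2 of genotype Braf Ca/+; p53 Fl/Fl. The muscles, 1 of each genotype, came from hind limbs that bore no tumour. All 8 samples thus carried floxed p53 alleles and at least 1 BrafCa allele, a conditional allele of the kinase gene Braf, and the tumours were started with an adenovirus that expresses Cre, the recombinase that acts on such alleles. Ages, the sex of the mice, and whether the muscles had received virus or came from tumour-bearing mice could not be read from the labels. The labels give the tissue of all 8 samples as muscle. Each value is the log2 of a fluorescence signal, so that a difference of 1 is 2-fold.

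Skeletal muscle is built of long fused fibres, in which stacked filaments of actin and myosin shorten when calcium is released inside the fibre, and the fibres take their energy from creatine phosphate, glycogen and mitochondria. Many proteins of the fibre have a relative, coded by another gene, that serves other cells. Undifferentiated pleomorphic sarcoma, the tumour type in the series title, is a tumour of mesenchymal cells without a clear line of differentiation. Braf acts in the kinase cascade from Ras to Erk, and p53 halts or removes damaged cells. In such bulk tissue, fewer cells of a type and less RNA per cell cannot be told apart.

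The arrays had medians from 5.79 to 5.90, and the number of arrays limits the precision. The median difference of all genes between sarcoma and muscle was 0.03, and it moved to -0.22 when the arrays were centred on 45 ribosomal protein genes. These 45 include Rpl3l, a form of striated muscle that differed by -5.75. All shifts under this centring are therefore smaller than they would be without Rpl3l, and a centring without it was not run. As a guide to the lower end of the scale, 29 genes of distant organs, such as those of sperm, eye and pancreas, had mean levels with a 90th percentile of 5.17. A change from or to a level under 5.17 may be larger than measured. Braf itself stood at 4.50 and 4.62 in the muscles and at 4.45 to 5.07 in the sarcomas, and Trp53 was not analysed here. The tissue label was checked with 25 genes that define the muscle fibre, with means of 11.77 for the Ca/Ca muscle, 11.97 for the Ca/+ muscle and 6.32 to 8.34 for the 6 sarcomas. Both muscles were thus rich in fibre RNA, and every sarcoma held less of it than either muscle, though more than the 3.47 to 3.74 of the distant organ genes.

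Of the 12393 genes, 3256 (26.3%) changed between the 6 sarcomas and the 2 muscles at an adjusted p under 0.05, 1626 of them higher (13.1%) and 1630 lower (13.2%) in sarcoma. With the Ca/Ca muscle alone as reference, 1195 genes changed (9.64%), 372 higher (3.0%) and 823 lower (6.64%). With the Ca/+ muscle alone, 2328 genes changed (18.8%), 1040 higher (8.39%) and 1288 lower (10.4%). Ribosomal protein centring moved the first split to 688 higher and 2405 lower, the Ca/Ca split to 51 and 1075 and the Ca/+ split to 495 and 1469. Cyclic loess moved them to 1157 and 1830, to 202 and 943, and to 775 and 1411. Leaving out the dimmest 50% of genes moved them the other way, to 1422 and 884 against both muscles, 283 and 417 against the Ca/Ca muscle and 938 and 683 against the Ca/+ muscle. These 3 comparisons share the 6 sarcomas, and in each fit with a single muscle that muscle is assumed to vary like the sarcomas. The Ca/+ muscle was also the 1 array with RNA of Y-linked genes, as given below. Sex and tissue therefore cannot be told apart against it alone.

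The counts of increases differed more between the references than those of decreases. A total of 309 genes were higher in sarcoma in all 3 fits with all 6 sarcomas above both muscles (2.49% of genes), and 730 were lower in the same way (5.89%). Among the 309 genes the Ca/Ca muscle stood above the Ca/+ muscle in 238 and below it in 71, and the median difference was 1.11 from the Ca/Ca muscle and 1.39 from the Ca/+ muscle. Among the 730 genes the Ca/Ca muscle stood above the Ca/+ muscle in 296 and below it in 434, with medians of -1.80 and -2.06. Over all genes the Ca/Ca muscle was the higher in 6067 and the lower in 6317. The plot of each gene against each muscle shows the increases as a band that lies below the diagonal.

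**Figure D1:**
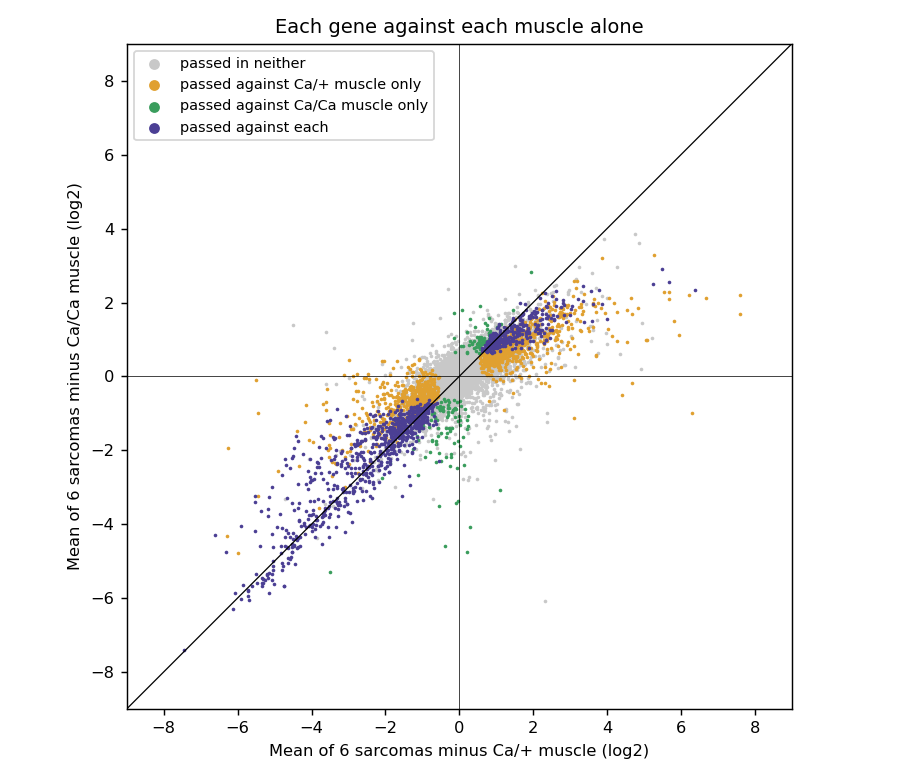
Each point is 1 of 12393 genes, placed by the log2 difference of the mean of 6 sarcomas from the Ca/+ muscle (horizontal) and from the Ca/Ca muscle (vertical), coloured by the limma call against each muscle. Many genes raised against the Ca/+ muscle lie under the line of equal differences, while the deepest decreases lie along it (both axes share the 6 sarcomas).

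The largest increases that passed against both muscles and against each alone were those of Hmga2, Esm1, Grem1, Nrcam, Rin1, Sphk1, Rai14, Skp2, Fosl1, E2f8, F2r and Cks2, and the plot of named genes gives each array. They include secreted and surface proteins, signalling enzymes and regulators of the cell cycle. For each of these 12 genes the Ca/Ca muscle lay between the Ca/+ muscle and the lowest sarcoma. Esm1, a secreted proteoglycan of endothelium, had a Ca/Ca muscle level of 5.41, a Ca/+ muscle level of 2.82 and sarcoma levels of 7.50 to 9.13 (median 8.41). Its difference was 4.20 (SE 0.63, adjusted p = 0.00226), with 2.91 (adjusted p = 0.0139) against the Ca/Ca muscle and 5.50 (0.000667) against the Ca/+ muscle. The Ca/+ muscle lay at the low end of the scale, the Ca/Ca muscle above it and all sarcomas higher still. Grem1, a secreted antagonist of bone morphogenetic proteins, had a Ca/Ca muscle level of 7.68, a Ca/+ muscle level of 4.58 and sarcoma levels of 9.13 to 11.03 (median 10.30). It rose by 4.11 (SE 0.75, adjusted p = 0.00519), with 2.56 (adjusted p = 0.0378) against the Ca/Ca muscle and 5.67 (0.00104) against the Ca/+ muscle. Hmga2, a chromatin protein of embryonic tissues, ran from 4.53 and 8.57 in the muscles to 10.13 to 11.60 in the sarcomas.

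Among the other members, the muscles were furthest apart for Nrcam (2.74) and E2f8 (2.45) and closest for Skp2 (0.90). Sphk1, the kinase that makes sphingosine 1-phosphate, had a Ca/Ca muscle level of 5.33, a Ca/+ muscle level of 4.09 and sarcoma levels of 7.46 to 7.94 (median 7.63). It rose by 2.94 (SE 0.29, adjusted p = 0.000292), with 2.32 (adjusted p = 0.000995) against the Ca/Ca muscle and 3.56 (0.000134) against the Ca/+ muscle. Skp2 marks the cell cycle inhibitor p27 for breakdown, and its 6 probe sets were higher in sarcoma by 0.30 to 2.91. It had a Ca/Ca muscle level of 4.33, a Ca/+ muscle level of 3.42 and sarcoma levels of 6.26 to 7.30 (median 6.87). It rose by 2.91 (SE 0.31, adjusted p = 0.000436), with 2.46 (adjusted p = 0.00679) against the Ca/Ca muscle and 3.36 (0.00109) against the Ca/+ muscle. F2r, the thrombin receptor, had a Ca/Ca muscle level of 8.82, a Ca/+ muscle level of 7.50 and sarcoma levels of 10.59 to 11.40 (median 10.73). It rose by 2.70 (SE 0.34, adjusted p = 0.00104), a 6.5-fold difference. Rin1, an effector of Ras, rose by 3.06 (SE 0.40, adjusted p = 0.00116). Fosl1, a transcription factor of the AP-1 family downstream of Erk, rose by 2.79 (SE 0.48, adjusted p = 0.00396) and had a Ca/Ca muscle level of 6.84, a Ca/+ muscle level of 5.19 and sarcoma levels of 8.14 to 9.73 (median 8.69). Nrcam, an adhesion molecule of nerve cells, rose by 3.87 (adjusted p = 0.00414), Rai14, an actin-bound protein, rose by 2.91 (adjusted p = 0.00369), E2f8, a repressor of the E2F family, rose by 2.78 (adjusted p = 0.00781), and Cks2, a partner of cyclin-dependent kinases, rose by 2.66 (adjusted p = 0.00242). The groups did not overlap for any of the 12, as the rule required.

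**Figure D2:**
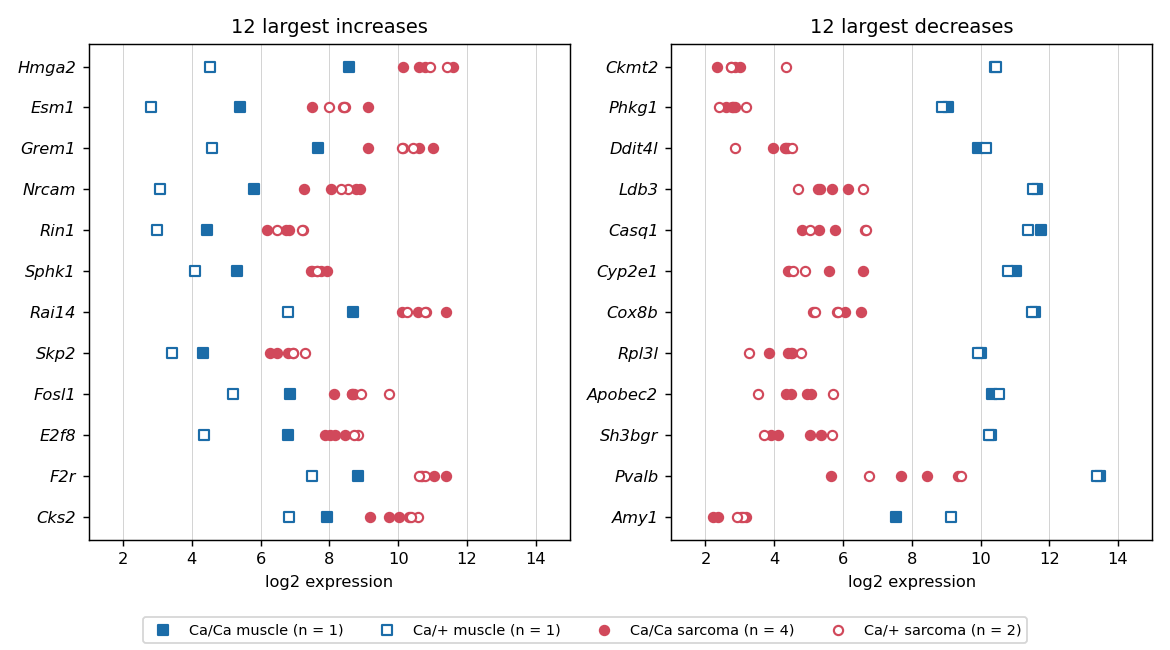
Log2 expression on each of the 8 arrays (horizontal) for the 12 largest increases and the 12 largest decreases among genes that passed in all 3 fits, with squares for muscles, circles for sarcomas, and filled symbols for Ca/Ca. For the increases the Ca/Ca muscle stands between the Ca/+ muscle and the sarcomas (Hmga2 8.57 against 4.53), while for the decreases other than Amy1 the muscles stand close together.

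The largest decreases were those of Ckmt2, Phkg1, Ddit4l, Ldb3, Casq1, Cyp2e1, Cox8b, Rpl3l, Apobec2, Sh3bgr, Pvalb and Amy1. Most are genes of the muscle fibre. Rpl3l, the ribosomal protein that stands in for Rpl3 in striated muscle, had a Ca/Ca muscle level of 10.01, a Ca/+ muscle level of 9.93 and sarcoma levels of 3.25 to 4.77 (median 4.45). It fell by 5.75 (SE 0.37, adjusted p = 3.39e-05). Apobec2, a muscle member of the cytidine deaminase family, had a Ca/Ca muscle level of 10.32, a Ca/+ muscle level of 10.53 and sarcoma levels of 3.52 to 5.71 (median 4.73). It fell by 5.75 (SE 0.48, adjusted p = 0.000135). Sh3bgr, a small protein of heart and skeletal muscle, fell by 5.65 (SE 0.53, adjusted p = 0.000227). Pvalb, the calcium buffer of fast fibres, had a Ca/Ca muscle level of 13.49, a Ca/+ muscle level of 13.38 and sarcoma levels of 5.65 to 9.43 (median 8.07), so that the sarcomas were far apart while the muscles were near each other. It fell by 5.54 (SE 0.95, adjusted p = 0.00399), with -5.60 (adjusted p = 0.0428) against the Ca/Ca muscle and -5.49 (0.0285) against the Ca/+ muscle. Cyp2e1, an enzyme of drug and fatty acid oxidation found in liver and fat, fell by 5.84 (SE 0.56, adjusted p = 0.000246). Amy1, an amylase, fell by 5.54 (SE 0.42, adjusted p = 7.36e-05) from 7.56 in the Ca/Ca and 9.13 in the Ca/+ muscle, and its probes may also read other amylase genes of near-identical sequence. All of these sarcoma medians other than those of Ldb3, Casq1, Cox8b and Pvalb lay under 5.17.

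The promoters of the 3 largest increases and 3 largest decreases are shown 5′ to 3′ on the strand of the gene. Each is the 250 bases before the first start listed by RefSeq (GRCm38.p6). The array does not show from which start the measured RNA came. Capitals mark matches, on either strand, to CAGCTG (the E-box form bound by myogenic factors), TATAAA (the TATA box), CCAAT (the CCAAT box), TTTGAA (an element of cell cycle genes) or the MEF2 consensus. The regions are those of Hmga2 (chr10:120476470-120476719, minus strand), Esm1 (chr13:113209409-113209658, plus strand), Grem1 (chr2:113758649-113758898, minus strand), Ckmt2 (chr13:91876886-91877135, minus strand), Phkg1 (chr5:129879089-129879338, minus strand) and Ddit4l (chr3:137623422-137623671, plus strand).
Hmga2: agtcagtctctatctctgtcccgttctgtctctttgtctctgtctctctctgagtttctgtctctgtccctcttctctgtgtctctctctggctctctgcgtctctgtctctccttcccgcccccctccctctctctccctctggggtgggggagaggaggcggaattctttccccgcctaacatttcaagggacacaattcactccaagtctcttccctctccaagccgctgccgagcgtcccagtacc
Esm1: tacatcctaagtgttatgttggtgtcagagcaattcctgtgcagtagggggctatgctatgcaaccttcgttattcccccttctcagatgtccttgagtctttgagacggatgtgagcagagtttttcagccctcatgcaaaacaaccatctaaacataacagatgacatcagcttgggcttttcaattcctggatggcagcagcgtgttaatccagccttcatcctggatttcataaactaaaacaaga
Grem1: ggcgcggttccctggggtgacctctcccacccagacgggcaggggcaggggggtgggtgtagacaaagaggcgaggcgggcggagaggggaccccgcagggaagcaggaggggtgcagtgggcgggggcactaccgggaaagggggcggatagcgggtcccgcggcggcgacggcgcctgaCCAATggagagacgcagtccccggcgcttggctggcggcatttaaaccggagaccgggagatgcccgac
Ckmt2: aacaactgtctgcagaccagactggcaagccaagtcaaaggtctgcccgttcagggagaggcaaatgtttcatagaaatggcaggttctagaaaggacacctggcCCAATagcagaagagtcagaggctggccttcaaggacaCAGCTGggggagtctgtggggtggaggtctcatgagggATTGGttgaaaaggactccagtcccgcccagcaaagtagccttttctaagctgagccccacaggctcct
Phkg1: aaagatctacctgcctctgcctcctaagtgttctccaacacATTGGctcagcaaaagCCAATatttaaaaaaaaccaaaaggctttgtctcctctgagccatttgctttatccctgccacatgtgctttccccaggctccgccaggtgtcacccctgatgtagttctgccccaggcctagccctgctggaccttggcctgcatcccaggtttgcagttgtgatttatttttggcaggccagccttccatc
Ddit4l: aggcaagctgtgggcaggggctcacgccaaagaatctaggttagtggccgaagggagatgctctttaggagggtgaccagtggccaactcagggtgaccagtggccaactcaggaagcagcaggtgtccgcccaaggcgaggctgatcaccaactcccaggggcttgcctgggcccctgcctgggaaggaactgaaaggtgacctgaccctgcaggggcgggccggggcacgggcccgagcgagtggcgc

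These windows of Hmga2, Esm1 and Ddit4l held no match, Grem1 held a CCAAT, Phkg1 held 2 and Ckmt2 held 2 and a CAGCTG. Over 9882 tested genes with a promoter entry, the MEF2 consensus was found in 1.84% of windows. It was found in 4 of 20 muscle fibre genes, in 26 of the 587 genes lower in all 3 fits without overlap (4.43%) and in 2 of the 239 genes higher in this way (0.837%). Mef2 proteins are transcription factors of muscle differentiation. The 4 fibre genes are shown here, chosen after the matches were seen, as Myh1 (chr11:67199852-67200101, plus strand), Myh4 (chr11:67237562-67237811, plus strand), Pvalb (chr15:78206401-78206650, minus strand) and Ttn (chr2:76982548-76982797, minus strand). In Myh1 and Myh4, fast myosin heavy chains that lie close together on 1 chromosome, the MEF2 match overlaps a TATAAA on the other strand.
Myh1: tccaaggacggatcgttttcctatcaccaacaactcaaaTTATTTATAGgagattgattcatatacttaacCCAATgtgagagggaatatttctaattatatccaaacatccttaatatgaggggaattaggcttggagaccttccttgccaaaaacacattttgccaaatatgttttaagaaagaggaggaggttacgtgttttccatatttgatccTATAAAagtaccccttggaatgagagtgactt
Myh4: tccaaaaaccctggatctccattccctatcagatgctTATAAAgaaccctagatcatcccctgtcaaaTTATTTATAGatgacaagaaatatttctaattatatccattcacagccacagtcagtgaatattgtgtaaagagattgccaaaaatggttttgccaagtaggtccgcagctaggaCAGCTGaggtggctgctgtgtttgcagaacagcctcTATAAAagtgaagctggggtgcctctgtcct
Pvalb: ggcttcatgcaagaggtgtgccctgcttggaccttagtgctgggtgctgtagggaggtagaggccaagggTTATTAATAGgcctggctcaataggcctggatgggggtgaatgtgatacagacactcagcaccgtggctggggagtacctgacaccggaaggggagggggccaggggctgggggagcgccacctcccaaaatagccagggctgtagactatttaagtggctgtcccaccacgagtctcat
Ttn: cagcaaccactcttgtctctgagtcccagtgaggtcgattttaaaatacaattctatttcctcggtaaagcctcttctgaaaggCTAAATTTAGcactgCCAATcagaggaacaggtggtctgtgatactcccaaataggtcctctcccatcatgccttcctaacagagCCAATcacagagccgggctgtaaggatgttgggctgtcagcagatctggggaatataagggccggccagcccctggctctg

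CAGCTG was found in 11.7% of all windows, in 9 of 20 muscle fibre genes, in 14.1% of the genes lower in all 3 fits and in 5.44% of those higher. CCAAT was found in 35.8% of all windows, in 37.7% of the genes higher in all 3 fits and 40.0% of those lower, in 8 of 20 fibre genes, in 11 of 21 nuclear pore and transport genes (52.4%) and in 15 of 27 DNA repair genes (55.6%). TTTGAA was found in 11.6% of all windows, in 11.7% of the genes higher in all 3 fits and 9.54% of those lower, in 6 of the 21 nuclear pore genes (28.6%) and in 1 of the 27 repair genes (3.7%). TATAAA was found in 9.14% of all windows, in 6.69% of the genes higher in all 3 fits and 8.52% of those lower, and in 5 of 20 fibre genes. These are letter matches in short windows, described without a test.

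Muscle forms of many proteins fell, and few of their relatives did. In 29 pairs made of a muscle form and a form of other tissues, the muscle form fell in 28, with a median difference of -4.03 over the 29, and the other form rose in 8, fell in 2 and did not pass in 19, with a median of 0.42. The pairs were chosen with earlier results of these data known. The difference between the forms, adjusted with all genes, passed in 28 pairs. It did not in Dmd and Utrn, at -1.002 (SE 0.35, adjusted p = 0.0703), where 1 of the 3 Utrn probe sets has the sign of the printed value. Of the 28 muscle forms that fell, those of Flnc, Itga7, Dmd and Cfl2 did not pass against the Ca/Ca muscle alone (-1.18, -1.44, -1.63 and -0.76, adjusted p = 0.163, 0.0701, 0.0644 and 0.144), and Dmd also not against the Ca/+ muscle alone (-1.40, 0.0704).

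Among enzymes of energy supply, Ckmt2, the mitochondrial creatine kinase of muscle, had a Ca/Ca muscle level of 10.41, a Ca/+ muscle level of 10.44 and sarcoma levels of 2.33 to 4.35 (median 2.79). It fell by 7.43 (SE 0.45, adjusted p = 2.47e-05). Its relative Ckmt1 was low on every array, at 3.65 and 3.95 in the muscles and 3.23 to 4.01 in the sarcomas. For Ckm and Ckb, the cytosolic creatine kinases, Ckm had a Ca/Ca muscle level of 13.44, a Ca/+ muscle level of 13.36 and sarcoma levels of 7.26 to 10.07 (median 9.81), and Ckb had a Ca/Ca muscle level of 7.53, a Ca/+ muscle level of 7.16 and sarcoma levels of 7.28 to 9.17 (median 7.89). The difference between these forms was -4.60 (SE 0.65, adjusted p = 0.00166). Phkg1, the catalytic subunit of muscle phosphorylase kinase, had a Ca/Ca muscle level of 9.06, a Ca/+ muscle level of 8.88 and sarcoma levels of 2.38 to 3.17 (median 2.78), whereas Phkg2 had a Ca/Ca muscle level of 5.98, a Ca/+ muscle level of 5.99 and sarcoma levels of 6.22 to 6.79 (median 6.37). Their difference was -6.65 (SE 0.16, adjusted p = 8.22e-07). For phosphoglycerate mutase, Pgam2 fell by 5.41 and Pgam1 rose by 1.28 (adjusted p = 0.0064), and Pgam1 did not pass against the Ca/Ca muscle alone (1.33, 0.0544). For the glucose transporters, Slc2a4, which insulin moves to the surface, fell by 4.38, and Slc2a1, the widespread form, rose by 1.68 (adjusted p = 0.012), but its value was 1.10 (adjusted p = 0.148) against the Ca/Ca muscle alone. Adssl1 and Adss, the adenylosuccinate synthetases on the route from IMP to AMP, differed by -4.94 (SE 0.43, adjusted p = 0.000152). Adss rose by 1.24 (adjusted p = 0.00726), but its value of 0.96 against the Ca/Ca muscle alone did not pass. Both forms of glycogen phosphorylase were lower, since Pygm fell by 5.51 and the liver form Pygl fell by 1.45 (adjusted p = 0.029), but its values were -1.44 (adjusted p = 0.168) against the Ca/Ca muscle alone and -1.46 (adjusted p = 0.121) against the Ca/+ muscle alone and its call was also lost without Ca/+ sarcoma 2 (0.0532).

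Mitochondrial and translation pairs differed between their forms as well. Cox8b, a subunit of cytochrome oxidase in muscle and brown fat, had a Ca/Ca muscle level of 11.58, a Ca/+ muscle level of 11.49 and sarcoma levels of 5.13 to 6.53 (median 5.83), and Cox8a had a Ca/Ca muscle level of 9.42, a Ca/+ muscle level of 10.18 and sarcoma levels of 9.46 to 10.07 (median 9.68). The difference between them was -5.70 (SE 0.29, adjusted p = 9.6e-06). For Cox7a1 and Cox7a2 it was -5.09 (SE 0.29, adjusted p = 1.58e-05), and for Cox6a2 and Cox6a1 it was -4.71 (SE 0.42, adjusted p = 0.00017). Eef1a2, the elongation factor of muscle and nerve, had a Ca/Ca muscle level of 12.69, a Ca/+ muscle level of 12.40 and sarcoma levels of 7.56 to 8.48 (median 8.18), and Eef1a1, the factor of most cells, had a Ca/Ca muscle level of 12.96, a Ca/+ muscle level of 13.03 and sarcoma levels of 13.19 to 13.35 (median 13.29). Eef1a2 fell by 4.46 and Eef1a1 differed by 0.29 (adjusted p = 0.0816). Slc25a4, the ADP and ATP carrier of muscle, fell by 1.71 (adjusted p = 0.00109), and Slc25a5 differed by 0.47 (adjusted p = 0.0796).

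In several structural pairs the other form rose. Cap2, a muscle form of the actin-binding cyclase-associated protein, had a Ca/Ca muscle level of 8.96, a Ca/+ muscle level of 8.86 and sarcoma levels of 4.07 to 5.18 (median 4.71), and Cap1 had a Ca/Ca muscle level of 7.12, a Ca/+ muscle level of 7.12 and sarcoma levels of 8.63 to 9.11 (median 8.997). Cap2 fell by 4.22 and Cap1 rose by 1.81, a difference between forms of -6.03 (SE 0.38, adjusted p = 3.09e-05). Both forms passed against each muscle alone. Tpm2, a tropomyosin of slow muscle and of other cells, did not pass at -0.59 (adjusted p = 0.345). Its 4 probe sets were all lower, with differences from -4.24 to -0.59, and the value tested is the smallest of them. Tpm4, a cytoskeletal tropomyosin, had a Ca/Ca muscle level of 9.81, a Ca/+ muscle level of 8.98 and sarcoma levels of 10.83 to 11.18 (median 11.05). It rose by 1.64 (SE 0.21, adjusted p = 0.00102). Cfl1, the general cofilin, rose by 1.11 (adjusted p = 0.00451), but its value was 0.79 (adjusted p = 0.0573) against the Ca/Ca muscle alone. Vim, the intermediate filament of mesenchymal cells, rose by 1.05 (adjusted p = 0.0168), but its value was 0.74 (adjusted p = 0.191) against the Ca/Ca muscle alone and its call was also lost under ribosomal protein centring (0.095) and under cyclic loess (0.0686), and Des, the filament of muscle, fell by 3.39. Itga5, the fibronectin receptor subunit, rose by 1.83 (adjusted p = 0.0189), but its value was 1.43 (adjusted p = 0.191) against the Ca/Ca muscle alone, and Itga7, the laminin receptor subunit of muscle, fell by 1.82. For the actins, Acta1 had a Ca/Ca muscle level of 13.57, a Ca/+ muscle level of 13.42 and sarcoma levels of 9.10 to 11.19 (median 10.76), and Actb had a Ca/Ca muscle level of 12.85, a Ca/+ muscle level of 12.95 and sarcoma levels of 13.08 to 13.46 (median 13.26), with a difference between forms of -3.29 (SE 0.55, adjusted p = 0.0035). In the p38 kinases both forms were lower, as Mapk12 fell by 2.71 and Mapk14 fell by 0.58 (adjusted p = 0.0177), but its values were -0.50 (adjusted p = 0.164) against the Ca/Ca muscle alone and -0.66 (adjusted p = 0.054) against the Ca/+ muscle alone and its call was also lost with the mean of its probe sets (0.243), and 3 of the 4 probe sets of Mapk14 shared that sign.

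**Figure D3:**
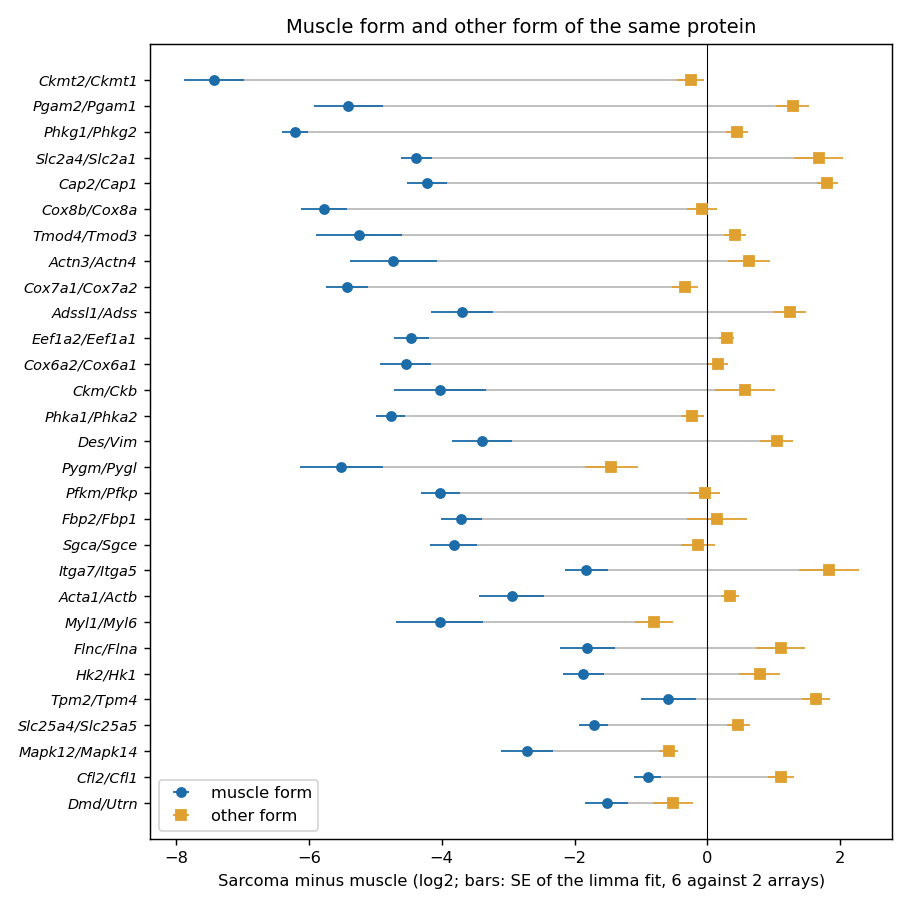
Log2 difference of 6 sarcomas from 2 muscles (horizontal, bars are the standard error of the limma fit) for the muscle form (circles) and the other form (squares) of 29 proteins, ordered by the gap between the forms. The circles lie left of the squares in every pair, from -0.59 for Tpm2 down to -7.43 for Ckmt2, and the squares lie between -1.45 (Pygl) and 1.83 (Itga5).

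Genes of the fibre fell with few exceptions. The list that defines the fibre repeats Acta1, Ckm, Myl1, Actn3 and Des of the pairs. It also repeats Pvalb, Casq1 and Ldb3 of the largest decreases. Casq1 and Ryr1 are in both lists given here, so these counts are not separate from each other or from those above. Of 25 genes that define the fibre, 0 rose, 25 fell and 0 did not pass, with a median difference of -4.44, and 0 rose and 23 fell against the Ca/Ca muscle alone (median -4.34), and 0 rose and 25 fell against the Ca/+ muscle alone (median -4.41). The Ca/Ca muscle stood at 4.62% of the way from the Ca/+ muscle to the sarcoma mean of the list, so the muscles were nearly level. Of 24 genes of membrane excitation and calcium release, 0 rose, 19 fell and 5 did not pass, with a median difference of -2.07, and 0 rose and 16 fell against the Ca/Ca muscle alone (median -2.11), and 0 rose and 19 fell against the Ca/+ muscle alone (median -1.97). Trdn, which anchors the calcium store to the release channel, had a Ca/Ca muscle level of 12.31, a Ca/+ muscle level of 12.09 and sarcoma levels of 5.82 to 7.83 (median 7.20). It fell by 5.14 (SE 0.48, adjusted p = 0.000214), with differences from -5.50 to -0.30 over its 6 probe sets. Ryr1, the release channel itself, fell by 5.01 (SE 0.63, adjusted p = 0.000998), and Casq1, the protein that stores the calcium, fell by 5.86. The 12393 genes as a whole had a median of 0.03, with 13.1% higher and 13.2% lower. List counts with both muscles as reference, here and below, are to be held against these shares. Those against a single muscle are to be held against the shares of all genes given above for that muscle. Some of the list counts lie near or under these shares. Of the 39 lists, limma called 0 rises in 13 and 0 falls in 6 with both muscles, and at an unadjusted p under 0.05 these lists held at most 1 rise and 3 falls each. Against the Ca/Ca muscle alone it called 0 rises in 23 (at most 6 unadjusted) and 0 falls in 10 (at most 5), and against the Ca/+ muscle alone 0 rises in 13 (at most 2) and 0 falls in 6 (at most 1).

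Genes that control fuel use and the breakdown of proteins fell in part. Of 22 energy sensing and mitochondrial regulators, 1 rose, 10 fell and 11 did not pass, with a median difference of -0.58. Taken by reference, 0 rose and 5 fell against the Ca/Ca muscle alone (median -0.55), and 1 rose and 9 fell against the Ca/+ muscle alone (median -0.60). Pdk2 and Pdk4, kinases that shut pyruvate out of mitochondria, were both lower, as Pdk2 fell by 4.37 (SE 0.26, adjusted p = 2.23e-05) and Pdk4 fell by 3.71 (SE 0.64, adjusted p = 0.00417). Mef2c, a transcription factor of muscle, fell by 2.41 (adjusted p = 0.00883), but its values were -2.54 (adjusted p = 0.0634) against the Ca/Ca muscle alone and -2.28 (adjusted p = 0.0604) against the Ca/+ muscle alone. The member that rose was Nrf1, a regulator of mitochondrial genes, which rose by 0.59 (adjusted p = 0.00917), but its value was 0.58 (adjusted p = 0.0825) against the Ca/Ca muscle alone and its call was also lost under ribosomal protein centring (0.123). Of 20 protein turnover and atrophy genes, 0 rose, 9 fell and 11 did not pass, with a median difference of -0.71. With a single muscle as reference, 0 rose and 7 fell against the Ca/Ca muscle alone (median -0.45), and 0 rose and 8 fell against the Ca/+ muscle alone (median -1.03). Asb11, a muscle ubiquitin ligase adaptor, fell by 5.40 (SE 0.45, adjusted p = 0.000135), Capn3, the muscle calpain, fell by 4.80 (adjusted p = 1.67e-05), and Trim54, a ubiquitin ligase of the sarcomere, fell by 4.71 (adjusted p = 6.58e-05).

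Breakdown of branched-chain amino acids, a mitochondrial route by which muscle burns leucine, isoleucine and valine, was lower across the list. Of 27 genes, 0 rose, 24 fell and 3 did not pass, with a median difference of -1.39, and 0 rose and 13 fell against the Ca/Ca muscle alone (median -1.18), and 0 rose and 21 fell against the Ca/+ muscle alone (median -1.74). Aldh6a1, an enzyme of valine breakdown, had a Ca/Ca muscle level of 9.05, a Ca/+ muscle level of 10.21 and sarcoma levels of 5.82 to 6.75 (median 6.14). It fell by 3.36 (SE 0.35, adjusted p = 0.000379). Hibch, of the same branch, fell by 2.31 (SE 0.33, adjusted p = 0.00191), and Bckdhb, a subunit of the dehydrogenase that commits all 3 amino acids, fell by 2.29 (SE 0.36, adjusted p = 0.00291). List means were 8.27 for the Ca/Ca muscle, 8.78 for the Ca/+ muscle and 6.94 to 7.12 for the 6 sarcomas, so the Ca/Ca muscle lay 29.3% of the way to the sarcomas. Mitochondrial import, folding and fusion genes had a median near that of all genes. Of 25, 1 rose, 6 fell and 18 did not pass, with a median difference of 0.11, a median that turned to -0.14 under ribosomal protein centring and under cyclic loess. By muscle, 0 rose and 3 fell against the Ca/Ca muscle alone (median 0.17), and 1 rose and 3 fell against the Ca/+ muscle alone (median 0.00). The fusion genes Mfn2 and Mfn1 were lower, as Mfn2 fell by 1.98 (adjusted p = 0.000725) and Mfn1 fell by 1.13 (adjusted p = 0.00137), but 1 of the 2 probe sets of Mfn2 went the other way. Mfn2 had a Ca/Ca muscle level of 9.27, a Ca/+ muscle level of 9.26 and sarcoma levels of 6.63 to 7.55 (median 7.37). Timm8a1, a chaperone of the space between the membranes, rose by 1.18 (adjusted p = 0.00869), but its value was 1.12 (adjusted p = 0.0861) against the Ca/Ca muscle alone.

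Genes of growth and division that lie outside the replication and ribosome machinery were higher in part. Of 23 genes of serine, one-carbon and nucleotide synthesis, 10 rose, 2 fell and 11 did not pass, with a median difference of 0.67, and 3 rose and 0 fell against the Ca/Ca muscle alone (median 0.59), and 9 rose and 1 fell against the Ca/+ muscle alone (median 0.85). Psat1, the aminotransferase of serine synthesis, had a Ca/Ca muscle level of 7.53, a Ca/+ muscle level of 7.24 and sarcoma levels of 9.05 to 9.34 (median 9.17). It rose by 1.80 (SE 0.14, adjusted p = 7.98e-05), a 3.48-fold difference that passed against each muscle. Dut, which keeps uracil out of DNA, rose by 1.57 (SE 0.22, adjusted p = 0.00157). Rrm2, the small subunit of ribonucleotide reductase, rose by 2.05 (adjusted p = 0.0189), but its value was 1.65 (adjusted p = 0.186) against the Ca/Ca muscle alone. The members that fell were Prps1, which makes the sugar of nucleotides and fell by 1.08 (adjusted p = 0.0231), but its value was -0.84 (adjusted p = 0.219) against the Ca/Ca muscle alone, and Adsl, an enzyme of the purine route, which fell by 0.75 (adjusted p = 0.0208), but its values were -0.73 (adjusted p = 0.145) against the Ca/Ca muscle alone and -0.77 (adjusted p = 0.0881) against the Ca/+ muscle alone. Of 26 translation factors, 11 rose, 2 fell and 13 did not pass, with a median difference of 0.42. Within the list, 3 rose and 2 fell against the Ca/Ca muscle alone (median 0.33), and 8 rose and 2 fell against the Ca/+ muscle alone (median 0.44). Eif1a, which helps to find the start codon, rose by 1.39 (SE 0.18, adjusted p = 0.00114) from 7.50 and 7.46 in the muscles, and Eif6, a factor of the large ribosomal subunit, rose by 1.14 (adjusted p = 0.00385), but its value was 1.06 (adjusted p = 0.0513) against the Ca/Ca muscle alone. The members that fell were Eef1a2, described above, and Eif4a2, a helicase, which fell by 1.01 (adjusted p = 0.00161).

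Nuclear pore and nuclear transport genes had the highest share of rises among the lists described when both muscles were the reference. Against the Ca/Ca muscle alone the share of cytosolic chaperones was higher (7 of 28), and against the Ca/+ muscle alone that of the non-muscle actin cytoskeleton was slightly so (17 of 38). Of 25 nuclear pore and transport genes, 16 rose, 0 fell and 9 did not pass, with a median difference of 0.82, against 13.1% higher among all genes, and 5 rose and 0 fell against the Ca/Ca muscle alone (median 0.75), and 11 rose and 0 fell against the Ca/+ muscle alone (median 0.89). Mean levels were 7.55 for the Ca/Ca muscle, 7.38 for the Ca/+ muscle and 8.04 to 8.50 for the 6 sarcomas, without overlap, and the Ca/Ca muscle stood 19.9% of the way to the sarcomas. Ranbp1, a cofactor of the transport GTPase Ran, had a Ca/Ca muscle level of 9.29, a Ca/+ muscle level of 8.93 and sarcoma levels of 10.53 to 10.96 (median 10.62). It rose by 1.58 (SE 0.17, adjusted p = 0.000436), a 2.98-fold difference. Nup107, a subunit of the outer ring of the pore, had a Ca/Ca muscle level of 6.54, a Ca/+ muscle level of 6.13 and sarcoma levels of 7.47 to 8.16 (median 7.78). It rose by 1.47 (SE 0.20, adjusted p = 0.00149). Kpna2, an importin, rose by 1.45 (adjusted p = 0.0061), but its value was 1.24 (adjusted p = 0.081) against the Ca/Ca muscle alone. Under ribosomal protein centring, which lowers all differences, the list median was 0.58.

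RNA processing, chromatin and repair genes showed smaller median shifts, with muscle members going down. Of 33 splicing and RNA binding genes, 14 rose, 3 fell and 16 did not pass, with a median difference of 0.40, but 2 rose and 2 fell against the Ca/Ca muscle alone (median 0.50), and 4 rose and 3 fell against the Ca/+ muscle alone (median 0.41). Ddx39a, an RNA export helicase, rose by 1.18 (SE 0.18, adjusted p = 0.00226) and Hnrnpab, an RNA binding protein, rose by 1.07 (SE 0.16, adjusted p = 0.00242). The 7 probe sets of Hnrnpab differed by 0.04 to 1.07, and the value tested is the largest of them. The 3 that fell were Rbfox1, a splicing regulator of muscle and nerve, with a Ca/Ca muscle level of 9.48, a Ca/+ muscle level of 9.74 and sarcoma levels of 4.92 to 5.57 (median 5.09), Rbm38, which fell by 2.31 (adjusted p = 6.58e-05), and Mbnl1, a splicing regulator of maturing muscle, which fell by 0.86 (adjusted p = 0.0168), but its value was -0.71 (adjusted p = 0.169) against the Ca/Ca muscle alone. Rbfox1 fell by 4.47 (SE 0.19, adjusted p = 4.26e-06). Of 35 chromatin genes, 12 rose, 2 fell and 21 did not pass, with a median difference of 0.61. In this list, 4 rose and 2 fell against the Ca/Ca muscle alone (median 0.57), and 8 rose and 2 fell against the Ca/+ muscle alone (median 0.67). Hells, a remodeller needed for DNA methylation, rose by 2.43 (SE 0.27, adjusted p = 0.000532), and Chaf1b, a subunit of the histone loader of replication, rose by 1.84 (SE 0.26, adjusted p = 0.00158). The 2 that fell were Smyd1, a methyltransferase of striated muscle, with a Ca/Ca muscle level of 8.96, a Ca/+ muscle level of 8.51 and sarcoma levels of 4.06 to 4.90 (median 4.65), for which 2 of 3 probe sets had the same sign, and Smarcd3, a remodeller subunit of heart and muscle, which fell by 3.52 (SE 0.16, adjusted p = 5.17e-06). Of 29 DNA repair and checkpoint genes, 11 rose, 0 fell and 18 did not pass, with a median difference of 0.57. Taken by reference, 5 rose and 0 fell against the Ca/Ca muscle alone (median 0.59), and 7 rose and 0 fell against the Ca/+ muscle alone (median 0.61). Ercc1, a nuclease subunit of excision repair, rose by 2.02 (SE 0.28, adjusted p = 0.00158). Brca1 rose by 2.28 (adjusted p = 0.00401), but its value was 2.003 (adjusted p = 0.0574) against the Ca/Ca muscle alone, with 3 of 4 probe sets of that sign, and Exo1, an exonuclease, rose by 2.19 (adjusted p = 0.00952), but its value was 1.64 (adjusted p = 0.124) against the Ca/Ca muscle alone.

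Cytosolic chaperones changed in both directions. Of 28, 11 rose, 6 fell and 11 did not pass, with a median difference of 0.41. With a single muscle as reference, 7 rose and 5 fell against the Ca/Ca muscle alone (median 0.43), and 8 rose and 6 fell against the Ca/+ muscle alone (median 0.37). All 6 that fell were Hspb3, Hspb7, Dnajb5, Hspb2, Hspb8 and Hspb1, 5 of them small heat shock proteins, most of which are abundant in muscle, and the last 3 names were chosen after their values were seen. Hspb3 had a Ca/Ca muscle level of 7.93, a Ca/+ muscle level of 8.18 and sarcoma levels of 4.02 to 4.41 (median 4.17). It fell by 3.88 (SE 0.15, adjusted p = 4.1e-06). Hspb7 fell by 3.64 (SE 0.44, adjusted p = 0.000799), from 9.08 in the Ca/Ca and 10.54 in the Ca/+ muscle. Those that rose were of the Hsp90, Hsp70, Dnaj and CCT families, although Dnajb5, also of the Dnaj family, fell by 2.41. Hsp90aa1, the inducible Hsp90, had a Ca/Ca muscle level of 9.28, a Ca/+ muscle level of 9.23 and sarcoma levels of 10.73 to 11.20 (median 10.90). It rose by 1.68 (SE 0.14, adjusted p = 0.000133), a 3.2-fold difference. Cct3, a subunit of the ring that folds actin and tubulin, rose by 0.94 (SE 0.14, adjusted p = 0.00216), and its 6 probe sets differed by 0.07 to 1.45. The muscles were close for both genes.

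The actin cytoskeleton of other cells was higher in part. Of 38 genes of the non-muscle actin cytoskeleton, 19 rose, 1 fell and 18 did not pass, with a median difference of 0.73, and 6 rose and 0 fell against the Ca/Ca muscle alone (median 0.59), and 17 rose and 1 fell against the Ca/+ muscle alone (median 0.96). List means were 9.90 for the Ca/Ca muscle, 9.59 for the Ca/+ muscle and 10.15 to 10.70 for the 6 sarcomas, with the Ca/Ca muscle 36.1% of the way to the sarcomas. Tpm4, given above, was among the members with the largest rise. Capg, which caps actin filaments, had a Ca/Ca muscle level of 9.05, a Ca/+ muscle level of 8.09 and sarcoma levels of 9.91 to 10.50 (median 10.22). It rose by 1.65 (SE 0.25, adjusted p = 0.00257). Cnn2, a calponin, rose by 1.44 (adjusted p = 0.019), but its values were 1.21 (adjusted p = 0.176) against the Ca/Ca muscle alone and 1.66 (adjusted p = 0.0525) against the Ca/+ muscle alone and its call was also lost under ribosomal protein centring (0.0523). The member that fell was Diaph1, a formin, which fell by 0.74 (adjusted p = 0.0484), but its values were -0.79 (adjusted p = 0.191) against the Ca/Ca muscle alone and -0.69 (adjusted p = 0.199) against the Ca/+ muscle alone and its call was also lost without Ca/Ca sarcoma 5 (0.0637), without Ca/Ca sarcoma 2 (0.0523), without Ca/+ sarcoma 1 (0.0787), without Ca/+ sarcoma 2 (0.0562) and with the mean of its probe sets (0.084).

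Tubulins changed in both directions. Of 25 microtubule genes, 9 rose, 5 fell and 11 did not pass, with a median difference of 0.66, and 2 rose and 5 fell against the Ca/Ca muscle alone (median 0.41), and 7 rose and 5 fell against the Ca/+ muscle alone (median 0.84). Tubb6 had a Ca/Ca muscle level of 8.76, a Ca/+ muscle level of 8.22 and sarcoma levels of 9.82 to 11.005 (median 10.45). It rose by 1.97 (SE 0.30, adjusted p = 0.00228), and Tubb5 rose by 1.51 (SE 0.24, adjusted p = 0.00313). Tuba8, an alpha-tubulin of muscle and testis, had a Ca/Ca muscle level of 9.19, a Ca/+ muscle level of 9.01 and sarcoma levels of 4.54 to 5.84 (median 4.93). It fell by 4.08 (SE 0.32, adjusted p = 9.28e-05), and Tuba4a fell by 2.21 (SE 0.18, adjusted p = 0.000123). Mapt, the microtubule-binding protein tau, fell by 2.60 (SE 0.13, adjusted p = 7.56e-06). Tpx2, a spindle protein, rose by 1.70 (adjusted p = 0.0393), but its values were 1.37 (adjusted p = 0.28) against the Ca/Ca muscle alone and 2.03 (adjusted p = 0.0839) against the Ca/+ muscle alone and its call was also lost without Ca/Ca sarcoma 2 (0.0632), without Ca/Ca sarcoma 1 (0.0614), without Ca/+ sarcoma 2 (0.0575), under ribosomal protein centring (0.0793) and with the mean of its probe sets (0.0531). Tubulin probes can read near-identical relatives.

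The share of genes called in 3 signalling lists was near that of all genes, with 8 of 33 Wnt, 5 of 23 Notch and 5 of 21 Yap and Tead genes against 26.3%. Of 33 Wnt pathway genes, 5 rose, 3 fell and 25 did not pass, with a median difference of -0.08, counts of 5 and 3 against 13.1% and 13.2% of all genes. By muscle, 0 rose and 2 fell against the Ca/Ca muscle alone (median 0.02), and 3 rose and 3 fell against the Ca/+ muscle alone (median -0.05). The Wnt antagonist gene Dkk2 rose by 3.09 (adjusted p = 0.0206), but its value was 1.99 (adjusted p = 0.232) against the Ca/Ca muscle alone. Dkk3 rose by 2.04 (adjusted p = 0.0132), but its values were 1.96 (adjusted p = 0.113) against the Ca/Ca muscle alone and 2.13 (adjusted p = 0.0608) against the Ca/+ muscle alone, and the ligand gene Wnt5a rose by 1.92 (adjusted p = 0.0149), but its value was 1.19 (adjusted p = 0.178) against the Ca/Ca muscle alone. Ccn4, a Wnt target, and the receptor gene Fzd2, both chosen after their values were seen, rose by 1.27 and 1.41 (adjusted p = 0.0368 and 0.0436), but were 0.87 (0.319) and 1.13 (0.297) against the Ca/Ca muscle alone. The 2 probe sets of Fzd4 differed by -2.71 and -0.15. Of those that fell, the ligand gene Wnt4 had a Ca/Ca muscle level of 7.20, a Ca/+ muscle level of 6.96 and sarcoma levels of 4.24 to 4.96 (median 4.56). It fell by 2.50 (SE 0.23, adjusted p = 0.000204), and passed against each muscle. Fzd4, a receptor of vessels, fell by 2.71 (adjusted p = 0.0166), but its value was -1.24 (adjusted p = 0.0937) against the Ca/Ca muscle alone, with 8.79 in the Ca/+ and 5.84 in the Ca/Ca muscle. Sfrp4, a secreted antagonist, fell by 1.42 (adjusted p = 0.0229), but its value was -0.80 (adjusted p = 0.205) against the Ca/+ muscle alone.

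Of 23 Notch pathway genes, 2 rose, 3 fell and 18 did not pass, with a median difference of -0.22. Within the list, 0 rose and 2 fell against the Ca/Ca muscle alone (median -0.21), and 3 rose and 4 fell against the Ca/+ muscle alone (median -0.16). Notch3, the receptor of vessel wall cells, had a Ca/Ca muscle level of 7.34, a Ca/+ muscle level of 7.94 and sarcoma levels of 5.29 to 6.02 (median 5.81). It fell by 1.93 (SE 0.25, adjusted p = 0.00106). Nrarp, a Notch target, fell by 1.04 (SE 0.17, adjusted p = 0.00296), and Jag2, a ligand, fell by 0.57 (adjusted p = 0.00785), but its value was -0.57 (adjusted p = 0.0711) against the Ca/Ca muscle alone. Notch2 rose by 1.71 (adjusted p = 0.0128), but its value was 1.29 (adjusted p = 0.154) against the Ca/Ca muscle alone, while 1 of its 2 probe sets went the other way. Rbpj, the DNA-binding partner of Notch, rose by 1.47 (adjusted p = 0.0428), but its value was 0.88 (adjusted p = 0.382) against the Ca/Ca muscle alone and its call was also lost without Ca/Ca sarcoma 2 (0.0645), without Ca/Ca sarcoma 1 (0.0746), without Ca/+ sarcoma 1 (0.065), without Ca/+ sarcoma 2 (0.0765), under ribosomal protein centring (0.102) and under cyclic loess (0.0692). Of 21 Yap and Tead genes and targets, 5 rose, 0 fell and 16 did not pass, with a median difference of 0.18, a median that turned to -0.06 under ribosomal protein centring. In this list, 1 rose and 0 fell against the Ca/Ca muscle alone (median 0.59), and 3 rose and 1 fell against the Ca/+ muscle alone (median -0.03). Tead2, a DNA-binding partner of Yap, had a Ca/Ca muscle level of 5.37, a Ca/+ muscle level of 4.83 and sarcoma levels of 6.41 to 8.04 (median 7.60). It rose by 2.36 (SE 0.38, adjusted p = 0.00302), and passed against each muscle. Tead4 rose by 1.75 (adjusted p = 0.0095), but its value was 1.55 (adjusted p = 0.106) against the Ca/Ca muscle alone and its call was also lost with the mean of its probe sets (0.0698), and Ccn2, a secreted matrix protein and Yap target, rose by 1.75 (adjusted p = 0.00841), but its value was 1.19 (adjusted p = 0.109) against the Ca/Ca muscle alone. The remaining 2, Mob1a (0.73) and Stk4 (0.53), chosen after their values were seen, are parts of the kinase cascade above Yap, with 0.71 (0.098) and 0.61 (0.148) against the Ca/Ca muscle alone.

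Adhesion and guidance genes act on the cell surface or are secreted to it. Of 35 adhesion molecules, 11 rose, 5 fell and 19 did not pass, with a median difference of 0.38, and 1 rose and 2 fell against the Ca/Ca muscle alone (median 0.20), and 10 rose and 3 fell against the Ca/+ muscle alone (median 0.66). Alcam rose by 2.84 (adjusted p = 0.0196), but its value was 1.85 (adjusted p = 0.222) against the Ca/Ca muscle alone. Cdh2, N-cadherin, rose by 2.17 (adjusted p = 0.00674), but its value was 1.89 (adjusted p = 0.0854) against the Ca/Ca muscle alone. Ncam1 rose by 2.84 (adjusted p = 0.0367), but its value was 1.73 (adjusted p = 0.347) against the Ca/Ca muscle alone and its call was also lost without Ca/Ca sarcoma 2 (0.0594), without Ca/Ca sarcoma 1 (0.0599), without Ca/+ sarcoma 1 (0.0514), without Ca/+ sarcoma 2 (0.0662) and under ribosomal protein centring (0.0591), and 5 of its 6 probe sets were higher. Cdh4, a cadherin of retina and muscle, had a Ca/Ca muscle level of 5.29, a Ca/+ muscle level of 5.15 and sarcoma levels of 3.46 to 3.84 (median 3.55). It fell by 1.61 (SE 0.15, adjusted p = 0.000202), and Cdh5, the cadherin of endothelium, fell by 1.30 (adjusted p = 0.0248), but its values were -1.23 (adjusted p = 0.171) against the Ca/Ca muscle alone and -1.38 (adjusted p = 0.0929) against the Ca/+ muscle alone. The 2 probe sets of Cdh4 differed by -1.61 and -0.18, and those of Cdh5 by -1.30 and -0.26. Cdh4 also stood near or under 5.17 on every array. Of 37 semaphorin, ephrin and axon guidance genes, 6 rose, 1 fell and 30 did not pass, with a median difference of 0.24, a median that turned to -0.01 under ribosomal protein centring. The 6 rises compare with 13.1% among all genes. Taken by reference, 0 rose and 1 fell against the Ca/Ca muscle alone (median 0.16), and 6 rose and 0 fell against the Ca/+ muscle alone (median 0.44). The 2 probe sets of Slit2 differed by 0.44 and 3.35. Slit2, a secreted guidance ligand, had a Ca/Ca muscle level of 5.93, a Ca/+ muscle level of 2.92 and sarcoma levels of 7.11 to 8.84 (median 7.40). It rose by 3.35 (adjusted p = 0.0146), but its value was 1.84 (adjusted p = 0.154) against the Ca/Ca muscle alone. Sema3a, a secreted semaphorin, had a Ca/Ca muscle level of 6.31, a Ca/+ muscle level of 4.36 and sarcoma levels of 7.33 to 8.75 (median 8.07). It rose by 2.72 (adjusted p = 0.00554), but its value was 1.74 (adjusted p = 0.0515) against the Ca/Ca muscle alone. Gap43, a growth cone protein, rose by 4.30 (adjusted p = 0.0168), but its values were 3.85 (adjusted p = 0.148) against the Ca/Ca muscle alone and 4.75 (adjusted p = 0.0585) against the Ca/+ muscle alone. The member that fell was Sema3b, which fell by 1.23 (adjusted p = 0.0247), but its value was -0.63 (adjusted p = 0.214) against the Ca/+ muscle alone.

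Of 26 genes of glycosaminoglycan and sugar nucleotide synthesis, 8 rose, 2 fell and 16 did not pass, with a median difference of 0.33. With a single muscle as reference, 3 rose and 1 fell against the Ca/Ca muscle alone (median 0.33), and 7 rose and 3 fell against the Ca/+ muscle alone (median 0.44). Ugdh, which makes the glucuronate donor of hyaluronan and heparan chains, had a Ca/Ca muscle level of 8.54, a Ca/+ muscle level of 8.62 and sarcoma levels of 9.88 to 10.47 (median 10.04). It rose by 1.50 (SE 0.17, adjusted p = 0.000542). Ext1, the heparan sulfate polymerase subunit, rose by 1.74 (SE 0.27, adjusted p = 0.00251), and Gfpt1, the entry enzyme of hexosamines, rose by 1.54 (SE 0.24, adjusted p = 0.00282). These 3 passed against each muscle. The 2 probe sets of Gfpt1 differed by 0.03 and 1.54, and the value tested is the larger of them. Gfpt1 was also dim, since both muscles (3.93 and 3.23) and the sarcoma median (5.02) lay under 5.17. Ugp2, which makes UDP-glucose and so serves glycogen as well, had a Ca/Ca muscle level of 11.23, a Ca/+ muscle level of 11.23 and sarcoma levels of 9.19 to 9.53 (median 9.41). It fell by 1.83 (SE 0.13, adjusted p = 5.04e-05), with all 5 probe sets lower. Sulf2, which trims sulfate from heparan chains, fell by 2.03 (adjusted p = 0.00924), but its value was -1.82 (adjusted p = 0.101) against the Ca/Ca muscle alone. Of 29 complement and coagulation genes, 2 rose, 2 fell and 25 did not pass, against 13.1% higher and 13.2% lower among all genes. The median difference was 0.11, and it turned to -0.14 under ribosomal protein centring and -0.07 under cyclic loess. By muscle, 0 rose and 2 fell against the Ca/Ca muscle alone (median -0.12), and 4 rose and 3 fell against the Ca/+ muscle alone (median 0.52). The 2 that fell guard cells against complement, and were Cd55, which fell by 2.79 (SE 0.32, adjusted p = 0.000645), and Cd59a, which fell by 1.68 (SE 0.22, adjusted p = 0.0011). The 2 that rose were Plau, urokinase, which rose by 2.26 (adjusted p = 0.0133), but its value was 1.27 (adjusted p = 0.138) against the Ca/Ca muscle alone, and its receptor Plaur, which rose by 1.75 (adjusted p = 0.00626), but its value was 1.17 (adjusted p = 0.0745) against the Ca/Ca muscle alone.

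Metabolic lists outside the mitochondrion divided within themselves. Of 29 genes of fatty acid and sterol synthesis, 5 rose, 9 fell and 15 did not pass, with a median difference of 0.13, a median that turned to -0.11 under ribosomal protein centring. Within the list, 3 rose and 5 fell against the Ca/Ca muscle alone (median 0.20), and 4 rose and 9 fell against the Ca/+ muscle alone (median 0.03). The 3 largest falls were those of Acacb, Lpin1 and Dgat2. Acacb, the acetyl-CoA carboxylase of muscle, had a Ca/Ca muscle level of 8.55, a Ca/+ muscle level of 9.0005 and sarcoma levels of 3.96 to 5.21 (median 4.75). It fell by 4.12 (SE 0.31, adjusted p = 7.09e-05). Lpin1, a phosphatidate phosphatase, fell by 3.66 (SE 0.27, adjusted p = 6.22e-05), and Dgat2, which makes triglyceride, fell by 3.21 (SE 0.54, adjusted p = 0.00385) from 8.52 in the Ca/Ca and 11.06 in the Ca/+ muscle. Sqle and Cyp51, enzymes of sterol synthesis, were higher. Sqle had a Ca/Ca muscle level of 6.35, a Ca/+ muscle level of 5.57 and sarcoma levels of 7.75 to 8.13 (median 7.91). It rose by 1.96 (SE 0.20, adjusted p = 0.000376), and Cyp51 rose by 1.37 (SE 0.15, adjusted p = 0.000416). Elovl1, which lengthens fatty acids, rose by 0.97 (SE 0.14, adjusted p = 0.00193). Of 30 antioxidant and peroxisome genes, 5 rose, 11 fell and 14 did not pass, with a median difference of -0.30, and 2 rose and 6 fell against the Ca/Ca muscle alone (median -0.01), and 4 rose and 10 fell against the Ca/+ muscle alone (median -0.54). Gpx3, the secreted glutathione peroxidase, had a Ca/Ca muscle level of 12.10, a Ca/+ muscle level of 12.41 and sarcoma levels of 8.56 to 10.12 (median 9.56). It fell by 2.77 (SE 0.39, adjusted p = 0.00163), and Txnip, an inhibitor of thioredoxin, fell by 2.14 (SE 0.31, adjusted p = 0.00193). Txn1, thioredoxin itself, rose by 1.05 (SE 0.14, adjusted p = 0.00119), and Gpx8, a peroxidase of the endoplasmic reticulum, rose by 1.72 (SE 0.26, adjusted p = 0.00245).

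Of 25 carriers of amino acids, lactate and metals, 9 rose, 4 fell and 12 did not pass, with a median difference of 0.38. In this list, 3 rose and 2 fell against the Ca/Ca muscle alone (median 0.44), and 7 rose and 2 fell against the Ca/+ muscle alone (median 0.53). Slc20a1, a phosphate carrier, had a Ca/Ca muscle level of 8.45, a Ca/+ muscle level of 7.45 and sarcoma levels of 9.73 to 10.11 (median 9.76). It rose by 1.91 (SE 0.25, adjusted p = 0.00119). Slc7a3, a carrier of cationic amino acids, rose by 2.31 (SE 0.31, adjusted p = 0.00134), and Slc39a6, a zinc carrier, rose by 2.04 (SE 0.30, adjusted p = 0.00199). Slc22a5, the carnitine carrier, fell by 1.24 (SE 0.19, adjusted p = 0.00225), and Slc16a3, which exports lactate, fell by 1.97 (adjusted p = 0.00958), but its values were -1.95 (adjusted p = 0.0837) against the Ca/Ca muscle alone and -2.001 (adjusted p = 0.0523) against the Ca/+ muscle alone. Of 26 lysosomal genes, 8 rose, 3 fell and 15 did not pass, with a median difference of 0.41, and 0 rose and 2 fell against the Ca/Ca muscle alone (median 0.25), and 7 rose and 2 fell against the Ca/+ muscle alone (median 0.63). Gla, which cleaves galactose from lipids, rose by 1.99 (adjusted p = 0.01), but its value was 1.82 (adjusted p = 0.103) against the Ca/Ca muscle alone. Tfeb, the transcription factor of lysosomal genes, had a Ca/Ca muscle level of 7.63, a Ca/+ muscle level of 7.28 and sarcoma levels of 5.70 to 6.28 (median 6.17). It fell by 1.37 (SE 0.18, adjusted p = 0.00136), and Scarb2, a lysosomal membrane protein, fell by 1.06 (SE 0.18, adjusted p = 0.00351). Of 29 cell death genes, 7 rose, 2 fell and 20 did not pass, against 13.1% higher and 13.2% lower among all genes. The median difference was 0.32. Taken by reference, 1 rose and 1 fell against the Ca/Ca muscle alone (median 0.40), and 4 rose and 2 fell against the Ca/+ muscle alone (median 0.46). Bcl2l1, the survival protein Bcl-xL, rose by 1.35 (SE 0.22, adjusted p = 0.00358), and by 1.00 against the Ca/Ca muscle alone. Its 4 probe sets differed by 0.06 to 1.35. Apaf1, the adaptor that activates caspases, rose by 1.35 (adjusted p = 0.00541), but its value was 0.92 (adjusted p = 0.0631) against the Ca/Ca muscle alone. Endog, a mitochondrial nuclease, fell by 1.70 (SE 0.18, adjusted p = 0.000467), and Fas, a death receptor, fell by 1.35 (adjusted p = 0.0196), but its value was -0.92 (adjusted p = 0.219) against the Ca/Ca muscle alone.

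**Figure D4:**
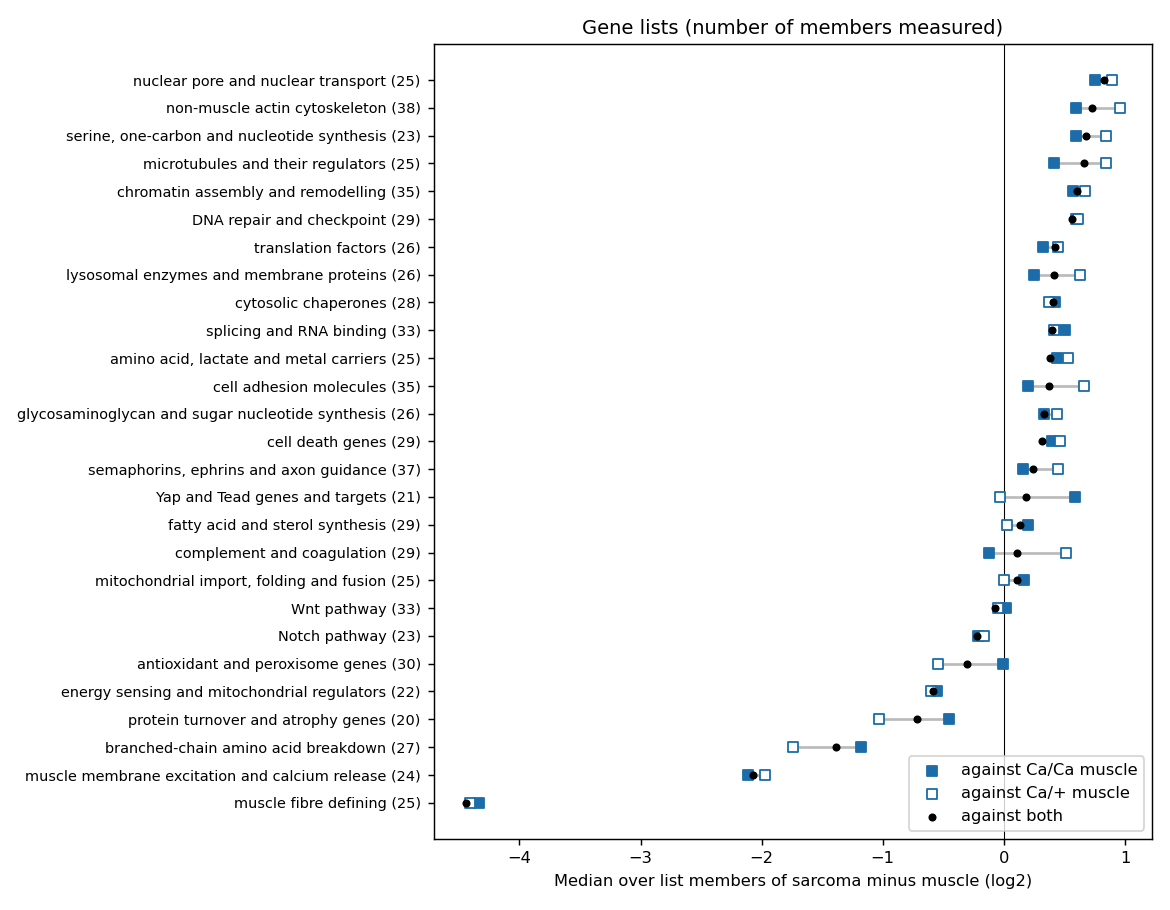
Median log2 difference over the members of each of 27 gene lists (horizontal), for 6 sarcomas against both muscles (points), the Ca/Ca muscle alone (filled squares) and the Ca/+ muscle alone (open squares), with the number of members measured in brackets. The lists run from -4.44 for the muscle fibre to 0.82 for the nuclear pore, and for complement, for Yap and Tead genes and for the Wnt pathway (0.02 and -0.05) the 2 references fall on opposite sides of 0.

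Among markers of other cell types, those of adipocytes, of endothelium, and of smooth muscle and pericytes included falls and 0 rises. Of 11 adipocyte markers, 0 rose, 10 fell and 1 did not pass, with a median difference of -3.97, and 0 rose and 6 fell against the Ca/Ca muscle alone (median -2.69), and 0 rose and 10 fell against the Ca/+ muscle alone (median -4.69). List means were 8.62 for the Ca/Ca muscle, 11.05 for the Ca/+ muscle and 5.07 to 6.91 for the 6 sarcomas, so the muscles themselves were far apart. Cidec, a protein of fat droplets, had a Ca/Ca muscle level of 9.17, a Ca/+ muscle level of 11.50 and sarcoma levels of 3.15 to 6.47 (median 4.97). It fell by 5.45 (SE 0.88, adjusted p = 0.00307). Of 17 endothelial markers, 0 rose, 11 fell and 6 did not pass, with a median difference of -1.29, but 0 rose and 4 fell against the Ca/Ca muscle alone (median -1.14), and 0 rose and 8 fell against the Ca/+ muscle alone (median -1.38). List means were 8.09 for the Ca/Ca muscle, 8.38 for the Ca/+ muscle and 6.28 to 7.16 for the 6 sarcomas. Vwf, a clotting protein of endothelium, had a Ca/Ca muscle level of 8.41, a Ca/+ muscle level of 7.95 and sarcoma levels of 4.46 to 5.89 (median 5.32). It fell by 2.87 (SE 0.37, adjusted p = 0.00116), whereas Esm1, which endothelium also makes, was among the largest rises. Of 16 smooth muscle and pericyte markers, 0 rose, 6 fell and 10 did not pass, with a median difference of -0.99. With a single muscle as reference, 0 rose and 6 fell against the Ca/Ca muscle alone (median -0.97), and 0 rose and 5 fell against the Ca/+ muscle alone (median -0.95). Myh11, smooth muscle myosin, had a Ca/Ca muscle level of 7.51, a Ca/+ muscle level of 7.56 and sarcoma levels of 3.77 to 4.89 (median 4.02). It fell by 3.39 (SE 0.28, adjusted p = 0.000114), and its 2 probe sets differed by -3.39 and -0.36. The part of these cell types in the differences of other genes was not tested.

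Of 22 macrophage markers, 4 rose, 0 fell and 18 did not pass, with a median difference of 0.96, but limma called 0 against the Ca/Ca muscle alone (median 0.28, 2 under 0.05 before adjustment) and 5 against the Ca/+ muscle alone (median 1.62). List means were 9.42 for the Ca/Ca muscle, 8.07 for the Ca/+ muscle and 8.66 to 10.18 for the 6 sarcomas, which places the Ca/Ca muscle 81% of the way to the sarcomas and inside their range. The 4 rises, against 13.1% higher among all genes, were Clec4n, Ms4a7, Lgals3 and, chosen after its values were seen, Cd68 (0.98). Clec4n, a lectin of macrophages, rose by 2.24 (adjusted p = 0.0112), but its value was 1.67 (adjusted p = 0.141) against the Ca/Ca muscle alone. Lgals3, galectin-3, which many mesenchymal cells also make, rose by 1.58 (adjusted p = 0.0131), but its value was 0.88 (adjusted p = 0.133) against the Ca/Ca muscle alone. Ms4a7 rose by 2.05 (adjusted p = 0.0408), but its value was 1.03 (adjusted p = 0.401) against the Ca/Ca muscle alone and its call was also lost without Ca/Ca sarcoma 3 (0.0678), without Ca/Ca sarcoma 2 (0.0731), without Ca/Ca sarcoma 1 (0.0708), without Ca/+ sarcoma 1 (0.0606), without Ca/+ sarcoma 2 (0.0717), under ribosomal protein centring (0.056) and under cyclic loess (0.0674), and its groups overlapped. Cd68 was 0.42 (0.443) against the Ca/Ca muscle alone. Fibroblast markers had means of 9.60 for the Ca/Ca muscle, 8.67 for the Ca/+ muscle and 8.91 to 9.50 for the 6 sarcomas. Of 20, 2 rose, 1 fell and 17 did not pass, against 13.1% higher and 13.2% lower among all genes. The median difference was 0.05, and it turned to -0.20 under ribosomal protein centring and -0.19 under cyclic loess. By muscle, 0 rose and 0 fell against the Ca/Ca muscle alone (median -0.28), and 4 rose and 1 fell against the Ca/+ muscle alone (median 0.69). Twist1, a transcription factor of mesenchyme, rose by 2.18 (adjusted p = 0.00651), but its value was 2.05 (adjusted p = 0.0728) against the Ca/Ca muscle alone, Thy1 rose by 1.73 (adjusted p = 0.0136), but its value was 1.23 (adjusted p = 0.166) against the Ca/Ca muscle alone, and Dpt, a matrix protein, fell by 3.04 (adjusted p = 0.00841), but its value was -2.98 (adjusted p = 0.0782) against the Ca/Ca muscle alone.

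Of 11 nerve sheath markers, 0 rose, 5 fell and 6 did not pass, with a median difference of -0.88, but 0 rose and 6 fell against the Ca/Ca muscle alone (median -1.39), and 0 rose and 1 fell against the Ca/+ muscle alone (median -0.36). List means were 6.80 for the Ca/Ca muscle, 5.87 for the Ca/+ muscle and 5.22 to 5.58 for the 6 sarcomas, so the Ca/Ca muscle was the higher of the muscles. Ncmap, a myelin protein, had a Ca/Ca muscle level of 7.02, a Ca/+ muscle level of 5.33 and sarcoma levels of 3.48 to 4.05 (median 3.84). It fell by 2.39 (SE 0.38, adjusted p = 0.00294), and S100b fell by 1.89 (adjusted p = 0.0119), but its value was -1.12 (adjusted p = 0.0943) against the Ca/+ muscle alone. Of 10 tendon markers, 1 rose, 4 fell and 5 did not pass, with a median difference of -0.70. Within the list, 0 rose and 3 fell against the Ca/Ca muscle alone (median -0.92), and 2 rose and 2 fell against the Ca/+ muscle alone (median -0.51). Fmod, a proteoglycan of tendon, had a Ca/Ca muscle level of 7.91, a Ca/+ muscle level of 8.04 and sarcoma levels of 3.80 to 5.60 (median 5.10). It fell by 3.12 (SE 0.48, adjusted p = 0.00251), and Col11a1, a collagen chain of cartilage, rose by 1.50 (adjusted p = 0.00965), but its value was 1.10 (adjusted p = 0.126) against the Ca/Ca muscle alone. Of 13 lymphocyte markers and of 14 neutrophil and mast cell markers, limma called 0, and 0 and 1 were under 0.05 before adjustment. Lymphocyte means ran from 4.30 in Ca/Ca sarcoma 5 to 6.97 in another sarcoma, with 6.31 and 6.59 in the muscles. The 3 probe sets of Slc4a1, a red cell marker, differed by -1.28 to -0.10. Of 4 red cell markers 2 fell, Slc4a1, which fell by 1.28 (adjusted p = 0.00065), and Alas2, which fell by 2.18 (adjusted p = 0.0303), but its values were -2.23 (adjusted p = 0.16) against the Ca/Ca muscle alone and -2.13 (adjusted p = 0.134) against the Ca/+ muscle alone and its call was also lost without Ca/+ sarcoma 1 (0.0526). Of 14 skin and hair markers 1 fell, Trp63, which fell by 0.83 (adjusted p = 0.00444), but its value was -0.69 (adjusted p = 0.0644) against the Ca/Ca muscle alone.

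**Figure D5:**
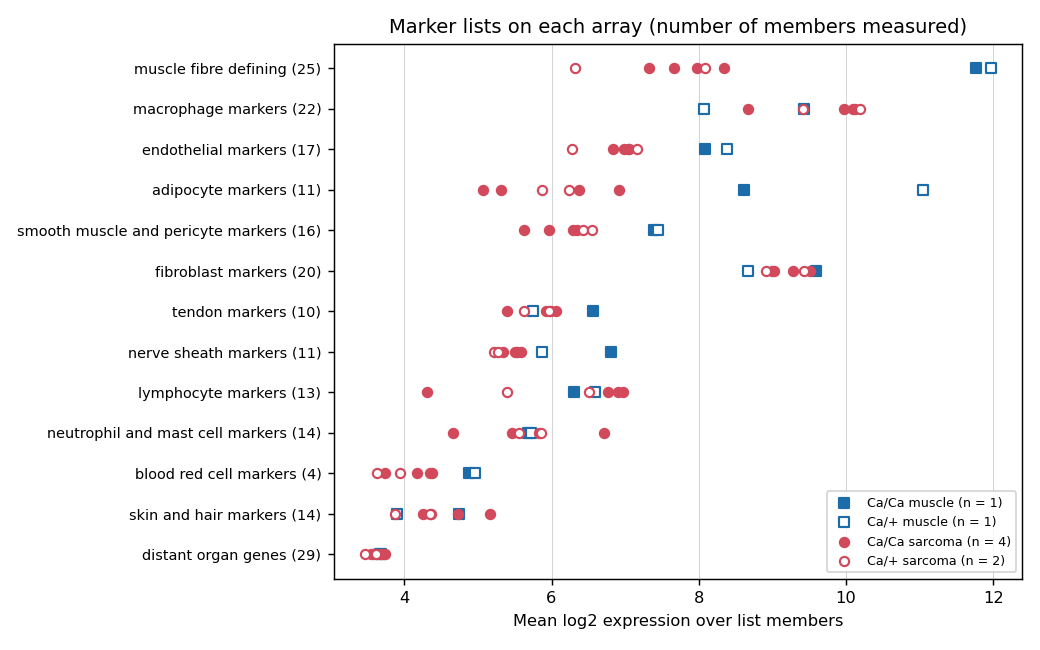
Mean log2 level over the members of each marker list (horizontal) on each of the 8 arrays, with squares for muscles, circles for sarcomas and filled symbols for Ca/Ca. The muscles are nearly level for the muscle fibre (11.77 and 11.97) and far apart for adipocytes (8.62 and 11.05) and macrophages (9.42 and 8.07).

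The muscles differed from each other by at least 2-fold in 557 genes that were higher in the Ca/Ca muscle and 313 that were lower, a comparison of 1 array with 1 array that has no test. The median absolute difference was 0.22. Those furthest above in the Ca/Ca muscle were Rnase2a, Arg1, Nefl, Crabp1, Wfdc18 and Plet1. Arg1, the arginase of liver and of some macrophages, had a Ca/Ca muscle level of 9.58, a Ca/+ muscle level of 2.28 and sarcoma levels of 6.65 to 10.57 (median 8.49). Rnase2a, a ribonuclease of white blood cells, had a Ca/Ca muscle level of 12.09, a Ca/+ muscle level of 3.68 and sarcoma levels of 4.22 to 8.35 (median 5.68). Crabp1, a carrier of retinoic acid, had a Ca/Ca muscle level of 9.78, a Ca/+ muscle level of 4.36 and sarcoma levels of 10.72 to 12.73 (median 12.07), so that the Ca/Ca muscle approached the lowest sarcoma. Nefl, a neurofilament subunit, had a Ca/Ca muscle level of 9.05, a Ca/+ muscle level of 3.13 and sarcoma levels of 9.28 to 12.06 (median 11.05). Wfdc18, a secreted protein, stood at 9.61 in that muscle alone, against 4.65 in the Ca/+ muscle and 4.50 to 5.22 in the sarcomas. Plet1 had a Ca/Ca muscle level of 8.40, a Ca/+ muscle level of 3.48 and sarcoma levels of 6.29 to 8.70 (median 8.24).

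Those furthest below in the Ca/Ca muscle were Ucp1, Eif2s3y, Glycam1, Csrp3, Cidea and Marco. Ucp1, the heat-making carrier of brown fat, had a Ca/Ca muscle level of 4.59, a Ca/+ muscle level of 10.48 and sarcoma levels of 3.71 to 8.10 (median 6.48). Cidea, a protein of fat droplets, had a Ca/Ca muscle level of 6.90, a Ca/+ muscle level of 11.22 and sarcoma levels of 4.29 to 5.68 (median 4.88). Csrp3, a protein of slow and heart muscle, had a Ca/Ca muscle level of 7.15, a Ca/+ muscle level of 11.61 and sarcoma levels of 5.23 to 7.16 (median 6.16), so its difference of -3.22 (adjusted p = 0.0444) was -0.99 (0.398) against the Ca/Ca muscle alone. Glycam1, a mucin of lymph node vessels and mammary gland, ran from 3.37 to 8.12 within the sarcomas, with 3.62 and 8.42 in the muscles.

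Eif2s3y, a gene of the Y chromosome, stood at 7.65 in the Ca/+ muscle and at 2.05 to 2.32 on the other 7 arrays. Kdm5d and Uty, also of the Y chromosome and chosen after their values were seen, had 4.61 and 4.98 there. Kdm5d ran from 2.03 to 2.28 and Uty from 2.88 to 3.72 on the other 7 arrays. Xist, the RNA of the inactive X chromosome, likewise chosen afterwards, had 5.59 in the Ca/+ muscle and 9.34 to 10.90 on the other arrays. The Ca/+ muscle was therefore the 1 array with RNA of Y-linked genes. Sex, genotype and animal thus cannot be told apart in the contrast between the muscles. Likewise, sex and tissue cannot be told apart in the contrast of the 6 sarcomas with the Ca/+ muscle alone. That muscle is also 1 of the 2 in the reference of the fit with all 8 arrays.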

How the data were processed

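Total RNA of 6 sarcomas and 2 muscles was hybridised to Affymetrix arrays, 1 array per sample. The authors deposited log2 values per probe set, made with RMA per the submitters' processing notes. Neither its version nor whether it was run on all arrays at once is stated there. Groups came from the sample titles. No label names separate animals, so the p-values rest on the spread among these arrays, part of which may be technical. At most 32 values were equal between any 2 arrays.

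Of 22690 probe sets, 64 were controls, 20380 had 1 gene symbol in the platform annotation, 691 had several and 1555 were not listed. Of the 12393 genes, 4956 had more than 1 probe set. All 3 fits used limma 3.58.1 in R 4.3.3 (lmFit and eBayes), with p-values adjusted by Benjamini and Hochberg's method over the 12393 genes and called under 0.05. The fit with a single muscle leaves out the other muscle. Differences between isoforms were taken within each array, fitted separately and adjusted with all genes. Their variances were moderated with the prior variance of the single genes. That prior was not estimated from such differences, so their SE and p-values rest on the assumption that it holds for them. The 39 lists (929 of 1061 entries measured) and 29 of 35 pairs are described by counts and medians. The members and lists were chosen with earlier results of these data known.

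Named genes were the 12 largest changes in each direction that passed all 3 fits without overlap, up to 3 members in each direction of each list, the isoform pairs, and the 6 largest differences between the muscles in each direction. Promoters came from RefSeq. On simulated data over 12393 genes, the fit with both muscles recovered 51.7% of changes of 2-fold and 86.8% of those of 4-fold (3.93% false calls), that with the Ca/Ca muscle alone 23.4% and 73.5% (5.85% false) and that with the Ca/+ muscle alone 23.4% and 72.6% (6.57% false). In that simulation far fewer genes were changed than the 26.3% called here, and both muscles were drawn around the same mean. Its rates describe that setting only and cannot be carried over to these data. Alternatives were 3 scalings, filters on dim genes, other uses of probe sets, other variance models, genotype as a covariate, and leaving out arrays. Figures used Python 3.11.15 and matplotlib 3.10.9.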

Additional observations from a re-analysis of the deposited data

Results flagged for a closer look

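Of 274 levels examined over the 6 sarcomas, named genes and list means together, 12 had a sample far from the rest by Dixon's criterion (4.38%), and chance alone gives about 1 in 20. Ca/+ sarcoma 1 was the far sample for 5 genes, with lower levels in each. Acta1 was 9.10 in Ca/+ sarcoma 1 against 10.44 to 11.19 in the other 5, Ckm 7.26 in Ca/+ sarcoma 1 against 9.23 to 10.07 in the other 5 and Ddit4l 2.87 in Ca/+ sarcoma 1 against 3.96 to 4.50 in the other 5. Slc25a4 was 10.37 in Ca/+ sarcoma 1 against 10.93 to 11.21 in the other 5, and Tead2 6.41 in Ca/+ sarcoma 1 against 7.46 to 8.04 in the other 5. Ca/+ sarcoma 1 also had the lowest muscle fibre mean of the 6 sarcomas, at 6.32. Ckmt2 was 4.35 in Ca/+ sarcoma 2 against 2.33 to 3.02 in the other 5. Ca/Ca sarcoma 3 was low for Gaa, at 7.24 in Ca/Ca sarcoma 3 against 7.87 to 8.09 in the other 5, for Mfn2, at 6.63 in Ca/Ca sarcoma 3 against 7.32 to 7.55 in the other 5, and for Phka1, at 4.91 in Ca/Ca sarcoma 3 against 5.49 to 5.53 in the other 5. Hnrnpab was 11.44 in Ca/Ca sarcoma 2 against 10.89 to 11.01 in the other 5. Mef2c was 5.74 in Ca/Ca sarcoma 5 against 7.09 to 7.72 in the other 5. The mean of the protein turnover and atrophy genes was 8.09 in Ca/Ca sarcoma 5 against 7.47 to 7.61 in the other 5, the highest of the 6.

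Eif2s3y was the 1 gene whose sarcoma minus muscle difference was called as different between the genotypes, by 5.52 (interaction in limma, adjusted p = 0.00687). It was the Ca/+ muscle, at 7.65, that stood apart from the other arrays.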

How the results depend on the processing

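The count of 3256 genes fell to 1799 with a 2-fold minimum, to 1287 with Ca/+ arrays only and to 601 with Ca/Ca arrays only, and it was 5260 of 20380 when every probe set was tested. Leaving out 1 array gave 1195 (without the Ca/+ muscle) to 3451 genes. Against the Ca/Ca muscle alone, 1195 became 700 without the dimmest 50% of genes and 1881 of 20380 probe sets, and leaving out 1 sarcoma gave 784 (without Ca/Ca sarcoma 2) to 1446. Against the Ca/+ muscle alone, 2328 became 3690 of 20380 probe sets, and leaving out 1 sarcoma gave 1800 to 2746. Of 203 named genes that were called, 194 kept the call under ribosomal protein centring, 199 under cyclic loess and 196 to 202 without 1 sarcoma. Fewer kept it in the fits that leave 1 muscle, and the fewest with Ca/Ca arrays only. The largest changes had been picked for passing against each muscle alone, so they kept the call there by rule. Of the called genes, 0 changed direction. For genes that changed sign, none of them called with all arrays, the values were Ckmt1 0.0223 with Ca/Ca arrays only, Cox6a1 -0.0768 under ribosomal protein centring, -0.15 under cyclic loess, -0.0511 without the Ca/Ca muscle, Cox8a 0.30 without the Ca/+ muscle, 0.33 with Ca/Ca arrays only, Eef1a1 -0.0332 under cyclic loess, Fbp1 -0.0908 under ribosomal protein centring, -0.44 without the Ca/+ muscle, -0.41 with Ca/Ca arrays only, Pfkp 0.10 with the mean of probe sets, 0.0327 without Ca/Ca sarcoma 2, 0.0263 without Ca/+ sarcoma 1, 0.00826 with Ca/Ca arrays only, Phka2 0.0904 without the Ca/+ muscle, 0.0562 with Ca/Ca arrays only, Sgce 0.0903 with Ca/+ arrays only, Tpm2 0.22 with Ca/+ arrays only. Leaving out 1 array gave -0.05 to 0.38 for Cox6a1, -0.45 to 0.30 for Cox8a, -0.44 to 0.74 for Fbp1, -0.13 to 0.03 for Pfkp, -0.54 to 0.09 for Phka2. The cause of these shifts was not tested. No paired analysis was possible because the muscles carry no number and each genotype has 1. The number of muscles and levels near the lower end of the scale limit small differences.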
